A study of Mus musculus with 78 samples.

Results

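Nascent transcription was compared between mouse embryonic stem cells that had lost the transcription factor ZFP143 for 6 h and cells that kept it. The genes described are all those with more than 10 reads in at least 2 of the 4 libraries compared, which left 17876 of the 55401 genes in the count table. At the edge of this rule, 286 genes whose second-highest count was 11 were included and 350 genes at 10 were left out. All cells were E14TG2a stem cells, grown in serum-free medium with LIF and inhibitors of MEK and GSK3-β, and all carried ZFP143-FKBP, the endogenous protein fused at its end to a degron, HA tags and GFP, in a line picked from sorted single cells. The 2 treated libraries came from cells given 500 nM dTAG-V1, which hands the fusion protein to the VHL ubiquitin ligase, for 6 h, and the 2 control libraries from cells given DMSO. RNA made in a window of 10 min was tagged with 2 mM 4-thiouridine, fragmented, pulled down and sequenced (TT-seq). An effect of dTAG-V1 on cells without the degron cannot be told apart from the loss of ZFP143, because every TT-seq library came from tagged cells.

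ZFP143 (ZNF143 in human) is a zinc finger protein that binds a long DNA element, known as the SBS, close to the start sites of many housekeeping genes, and also at promoters of small nuclear RNA genes. It is known as an activator and works with the host cell factor HCFC1. Because TT-seq reads newly made RNA, a gene whose transcription stops loses its signal within minutes, while the mature mRNA can stay for hours.

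The 4 libraries held 9721568 and 13255099 counts in DMSO and 13235340 and 12297363 counts after 6 h. Values per library are given below in CPM (counts scaled to a common library size, with TMM factors), and no spike-in was used in the counts, so every value is relative to the other genes of its library. Fewer cells of a type and less RNA per cell cannot be told apart in such bulk samples. Stem cell markers were present in all 4 libraries: the summed level of 20 genes of naive pluripotency ran from 5610 to 6310 CPM, and none of the 20 was called, although 3 had both treated libraries below both controls and 3 above. Pou5f1 read 82.3 and 85.3 CPM in DMSO and 58.6 and 64 CPM after 6 h (adjusted p = 0.195), and Tfcp2l1 930 and 950 CPM in DMSO and 1180 and 1090 CPM after 6 h (adjusted p = 0.302). Of these 4, 1 library stood apart in mesoderm markers, whose sum was 53.3 CPM in DMSO replicate 2 and 6.85 to 8.77 CPM in the others, almost all of it from Cdx1. In the 24 h libraries of the same fit Cdx1 read 2.17 CPM in replicate 1 and 40.8 CPM in replicate 2. The part of these differences between libraries in the results was not tested. With 2 libraries a group, the p-values measure only the spread between replicate libraries. That spread was estimated over all 8 TT-seq libraries fitted together, the 2 h and 24 h libraries among them, and in part shared across genes.

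Nascent RNA of Zfp143 itself rose after depletion. It read 71.1 and 74.2 CPM in DMSO and 161 and 164 CPM after 6 h. The groups were far apart, and the change was 1.16 ± 0.11 on the log2 scale (SE), with an adjusted p of 0.000827 by edgeR's quasi-likelihood test. The counts say nothing of the protein, which the degron removes without touching the gene. The gene lies on chromosome 7 (GRCm38, positions 110061217 to 110095394, plus strand), and no ZFP143 peak lay at its promoter.

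At 6 h the response ran mainly downward. Of the 17876 genes, 551 were called lower, 3.08% of the genes tested, and 80 were called higher, 0.448%, at an adjusted p under 0.05 in edgeR's quasi-likelihood test and a log2 change of more than 0.5 either way. The median gene called lower had a log2 change of -1.33, the median gene called higher one of 0.90, and the median over all tested genes was 0.01. Decreases were also the deeper ones: 375 genes fell at least 2-fold, 145 at least 4-fold and 54 at least 8-fold, against 30, 6 and 0 genes that rose by as much. In every called gene the treated libraries lay clear of the controls, as they did in many genes that were not called, since 4269 of all genes had them below and 4201 above. Among the called genes, 471 of those lower and 59 of those higher were protein coding. The replicate numbers appeared to pair the libraries, although least so for DMSO with 6 h, whose replicate differences correlated at 0.199 over genes. With the number as a block in the fit 1044 genes were called lower and 397 higher, among them 550 and 80 of the genes above. Leaving out 1 library lowered the counts, to 341 lower and 47 higher without DMSO replicate 1, 281 and 35 without DMSO replicate 2, 142 and 12 without 6 h replicate 1, and 180 and 10 without 6 h replicate 2. Many of the genes named below thus missed the threshold without 1 library, with an unchanged direction, and their adjusted p-values in such fits are given beside them.

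**Figure D1:**
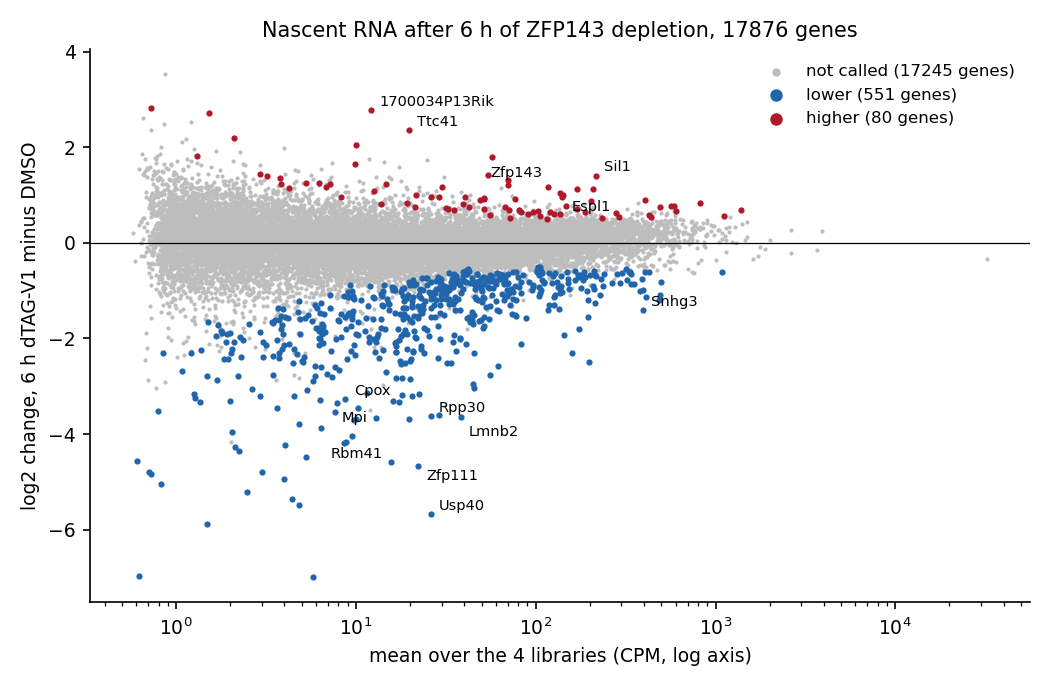
Log2 change after 6 h of dTAG-V1 against DMSO (vertical axis) by mean level in CPM over the 4 libraries (horizontal log axis), 1 point per gene for 17876 genes. Blue points are the 551 genes called lower, red points the 80 genes called higher, and the decreases reach much further from 0 than the increases.

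The deepest decreases left genes nearly silent. Usp40, a ubiquitin-specific protease, read 47.3 and 55.2 CPM in DMSO and 1.17 and 0.825 CPM after 6 h, a log2 change of -5.67 ± 0.29 (SE; adjusted p = 0.000115, edgeR's quasi-likelihood test). Zfp111, a zinc finger gene, fell from 45.5 and 40.1 CPM to 1.95 and 1.4 CPM. Rbm41, which codes for an RNA-binding protein, fell from 23.1 and 37.2 CPM to 1.09 and 1.4 CPM. In each of these 3 genes the treated libraries held a small fraction of the lower control. Sdccag8, a centrosome gene, changed by -3.67 on the log2 scale, Mpi, mannose phosphate isomerase, by -3.66, and Lmnb2, the gene of lamin B2, by -3.64. The other genes among the 10 deepest decreases with a mean count of at least 100 were Zfp862-ps at -4.17, B230118H07Rik at -4.05, Samd12 at -3.70 and Sult6b1, a sulfotransferase gene, at -3.69. A pair of genes of lower level went to the floor of the assay. Setmar, which codes for a SET domain methyltransferase, read 10.8 and 12.2 CPM in DMSO and 0 and 0.165 CPM after 6 h. Zfp354b had 13 and 15 reads in DMSO and none in either treated library, so it was at least 10.4-fold lower against a floor of 3 counts over both treated libraries. Both passed the count rule through the DMSO libraries alone, as did Zfp94, Zfp354a, Jun, Mmachc and Pomgnt2 below, so they entered the test only through the group where they were high. There were 133 such genes, of which 41 were called lower. For Zfp354b the adjusted p was 0.0905 to 0.179 without any 1 of the 4 libraries.

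The increases were fewer and smaller. The greatest among genes with that mean count was 1700034P13Rik, an antisense RNA, at 2.27 and 3.8 CPM in DMSO and 21.9 and 20.5 CPM after 6 h, a log2 change of 2.78 ± 0.26 (SE; adjusted p = 0.000798, edgeR's quasi-likelihood test). Ttc41 rose from 7.63 and 5.24 CPM to 33.7 and 32 CPM. Gm26901 rose from 22.8 and 28.3 CPM to 83.2 and 94.8 CPM. The treated libraries lay close together and well above the controls in all 3. Trmt10a, a tRNA methyltransferase gene, rose by 1.43 on the log2 scale, Sil1, an exchange factor for the chaperone BiP, by 1.41, Rabl3, a small GTPase gene, by 1.32, and Ubxn8, a gene of the endoplasmic reticulum, by 1.22. Gm13778 (2.04), the transcription factor gene Sox6 (1.64) and the zinc finger gene Zfp385b (1.22) complete the 10 greatest increases among called genes with a mean count of at least 100. Sil1 missed the threshold without DMSO replicate 2 or 6 h replicate 1 (adjusted p = 0.0632 and 0.0692), Sox6 without DMSO replicate 2 or either 6 h library (0.106 to 0.113), and Zfp385b without either 6 h library (0.0583 and 0.0584).

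**Figure D2:**
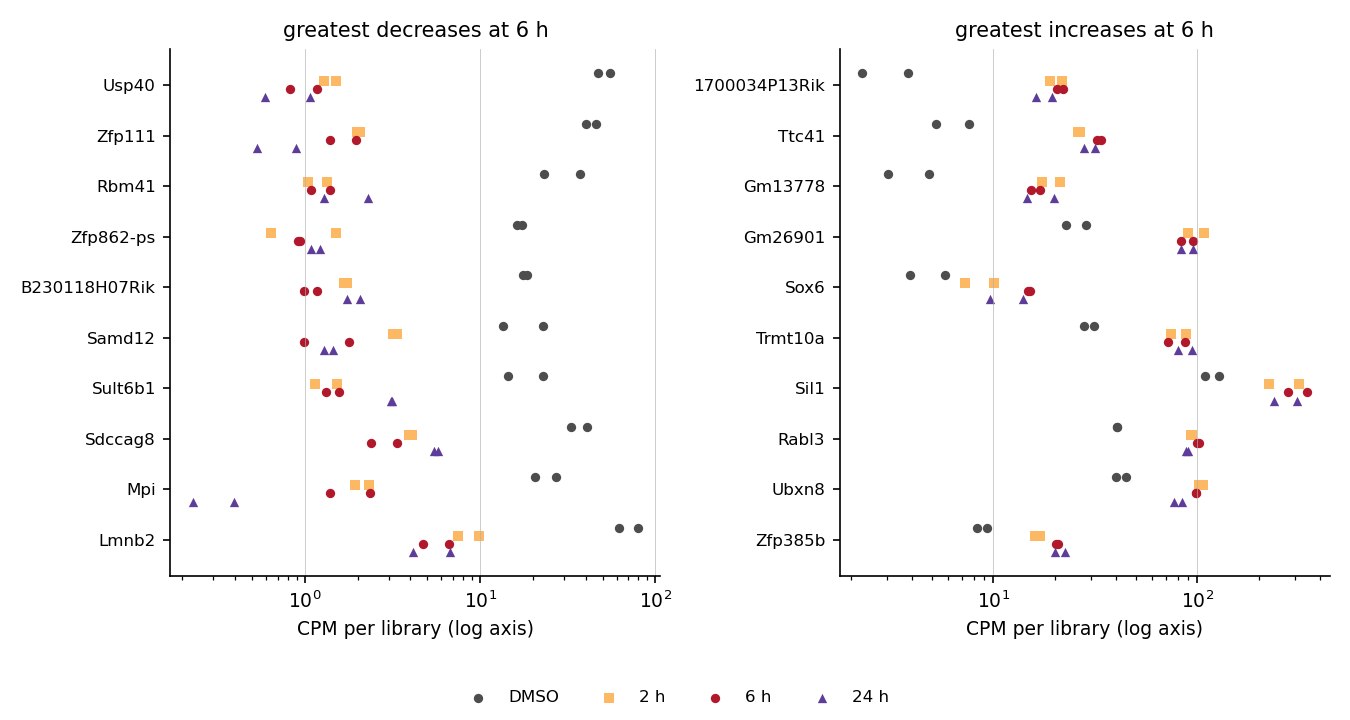
CPM per library on log axes for the 10 greatest decreases (left) and the 10 greatest increases (right) among called genes with a mean count of at least 100, with 2 points for each of DMSO, 2 h, 6 h and 24 h. In every row the 6 h points lie clear of the DMSO points.

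The state at 6 h was then compared with the state at 2 h, in 2 further TT-seq libraries of the same cells treated for 2 h. No gene was called in either direction by edgeR's quasi-likelihood test, with 152 genes lower and 123 higher at an unadjusted p under 0.05, and DESeq2 called 2 lower and none higher. With the block by replicate number no gene was called either, and the smallest adjusted p was 0.154. Of all tested genes, 16732 lay within 0.5 on the log2 scale of their 2 h value. The genes called lower at 6 h had median log2 changes of -1.28 after 2 h, -1.33 after 6 h and -1.29 after 24 h of treatment, while for the genes called higher they were 0.63, 0.90 and 0.67. These comparisons share the DMSO libraries, and the genes were chosen at 6 h. The genes that DESeq2 called were Snhg3, a host gene of small nucleolar RNAs, and Snora73a inside it. Snhg3 read 543 and 601 CPM in DMSO, 337 and 388 CPM at 2 h, 208 and 226 CPM at 6 h, and 191 and 210 CPM at 24 h. The 2 h libraries of Snhg3 lay between the controls and the later libraries, with no overlap. Its DESeq2 change between 2 h and 6 h was -0.75 on the log2 scale (adjusted p = 0.0393). Without a filter on low counts, edgeR's quasi-likelihood test called Snhg3, Snora73a, Snora73b and AC121821.1 lower, with adjusted p-values of 0.0141 to 0.0472.

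Genes called lower were mostly genes with ZFP143 at the promoter. The deposited peak list was read against transcript starts of 15625 tested genes of protein-coding and long non-coding types, and a gene counted as bound when a peak reached into the window from 2000 bp before to 1000 bp after a start and its centre lay within 2000 bp. Of the 509 genes called lower that could be assessed, 451 were bound, 88.6% (95% Wilson interval 85.6 to 91.1). Of the 72 called higher 25 were bound, 34.7% (24.8 to 46.2), and of those not called 12.3% (11.7 to 12.8). Read the other way, 451 of 2321 bound genes were called lower, 19.4%, with a median log2 change of -0.30 over all of them. Among 13304 genes without a peak 58 were called lower, 0.436%, and their median was 0.04. Most bound genes were thus not called at this spread.

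Stronger and more central peaks went with more decreases. Peak enrichment is the fold over input that MACS2 reported. With bound genes split by enrichment into 4 bins of nearly equal number, from 4.35 to 18.4-fold in the lowest to 59.4 to 345-fold in the highest, 6.51%, 16.5%, 22.9% and 32.0% of the genes were called lower. The share called higher was 0.342%, 0.693%, 1.37% and 1.9% in the same order. The share also differed by position: 25.3% of the genes with a peak centre within 100 bp of the start were called lower, 13.3% with a centre 100 to 500 bp upstream and 17.1% with one 100 to 500 bp downstream. Beyond 500 bp the shares were 3.64% upstream, 6 of 165 genes, and 3.03% downstream, 2 of 66. All tested genes stood at 3.08%, and genes without a peak at 0.436%. A CTCF peak overlapped 5.99% of the peaks of bound genes called lower and 7.48% of those of bound genes not called.

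**Figure D3:**
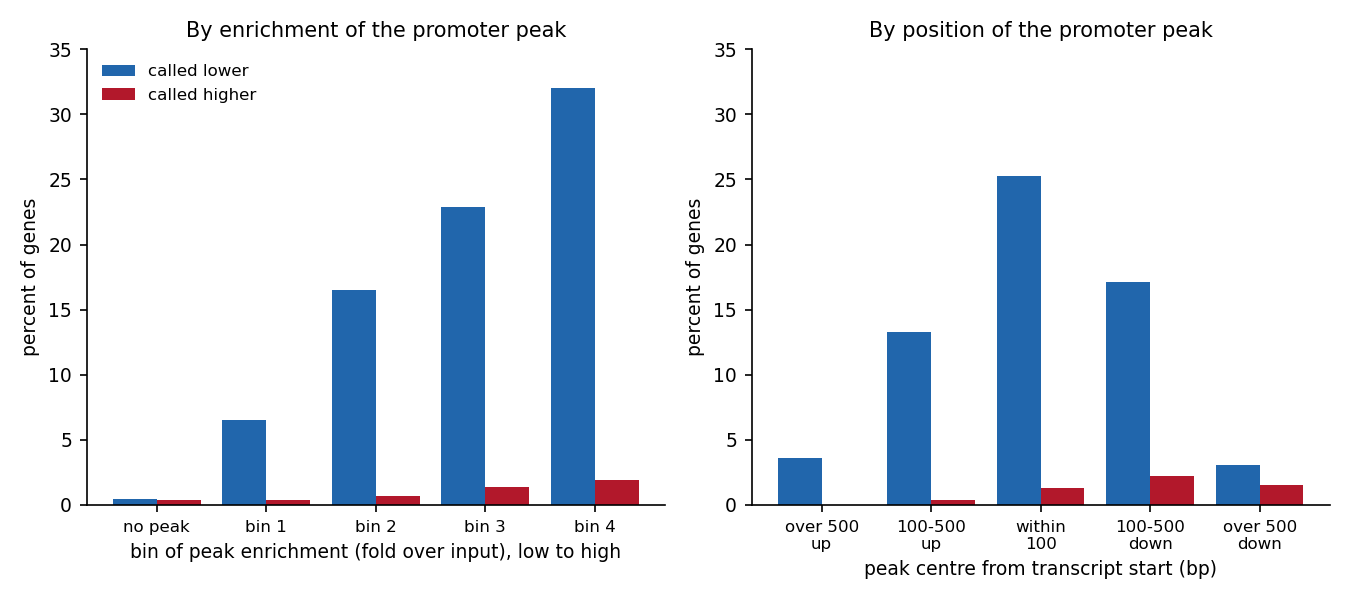
Percent of genes called lower (blue) and higher (red) at 6 h, by bin of ZFP143 peak enrichment (left, genes without a peak first, bin 4 strongest) and by the distance in bp of the peak centre from the transcript start. The share called lower climbs from 0.436% without a peak to 32.0% in bin 4, and is highest, at 25.3%, for centres within 100 bp of the start.

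The DNA under the peaks was searched for the letters CCCANNATG, the core of the SBS, on both strands within 150 bp of each peak centre, and for ACTACA beginning 9 bases before that core. The core letters stood in 25.4% of the 3189 peaks and in 5.08% of the 15618 windows of equal length at transcript starts. With ACTACA in its place before the core, the shares were 5.77% and 0.621%, and each of the 97 starts with the full letters belonged to a bound gene. The core letters alone stood at 464 starts without a peak, and 0.862% of those genes were called lower. The sites below come from the reference genome GRCm38 and belong to the 8 genes with the deepest decreases among the genes named by rule that hold the core letters at their peak, read on the strand that carries the motif, with the core and, where present, ACTACA in capitals.
Zfp94, chr7:24316605-24316634, plus strand: ctgggaaacacttCCCAGAATGcttcgcat
Zfp111, chr7:24208198-24208227, plus strand: tgggACTACAtttCCCAGAATGctaaagtt
Rpp30, chr19:36083656-36083685, plus strand: acaacctaaaactCCCAGCATGcctgaggg
Cox7c, chr13:86046655-86046684, plus strand: ccggatactctggCCCAACATGtcgctgct
Gtf2h4, chr17:35673755-35673784, minus strand: gaggACTACAattCCCAAGATGccttgcga
Sepsecs, chr5:52669704-52669733, plus strand: acacacaccgaggCCCAGGATGcaacgcgc
Jun, chr4:95052503-95052532, minus strand: accaagacgtcagCCCACAATGcaccgggc
Atp5d, chr10:80142189-80142218, plus strand: gaaaACTACAattCCCAGAATGacccaccc
All 8 genes share the core, and 3 of them, Zfp111, Gtf2h4 and Atp5d, also carry ACTACA before it. The match lies 144 bases before the start of Zfp111 and 58 before that of Rpp30, and 102 bases after the start of Cox7c.

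The genes behind these sites cover different tasks. Zfp94 codes for a zinc finger protein and fell from 5.98 and 5.7 CPM to 0.234 and 0.165 CPM. Gtf2h4, a subunit of the repair and transcription factor TFIIH, fell from 9.08 and 9.95 CPM to 1.17 and 1.07 CPM. Sepsecs, the enzyme that makes selenocysteine on its tRNA, fell from 16.1 and 26.1 CPM to 5.14 and 3.55 CPM. In all 3 both treated libraries lay below both controls with a wide gap. Jun, an immediate early transcription factor gene, read 2.89 and 2.43 CPM in DMSO and 0.623 and 0.743 CPM after 6 h, a log2 change of -1.94 (adjusted p = 0.0332, edgeR's quasi-likelihood test). Jun and Zfp94 are among the genes that passed the count rule through DMSO alone. Jun missed the threshold without any 1 of the 4 libraries (0.0833 to 0.267), and Sepsecs without DMSO replicate 2 or either 6 h library (0.102 to 0.182). Gtf2h4 was the 1 gene called of 10 in the TFIIH list, against 3.08% of all tested genes.

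The 25 bound genes called higher were described by the same letters. The core CCCANNATG was in the peak windows of 5 of them, of 30.2% of the bound genes called lower and of 22.7% of those not called. The looser core CCCANNNTG, added after the data were seen, stood at 32.0%, 49.4% and 38.8% of the same genes. ACTACA with or without the core, also searched for after the data were seen, went the other way: it was in the peak windows of 19 of the 25 bound genes called higher, 76.0%, against 52.5% of those called lower, 43.6% of bound genes not called and 39.3% of all peaks. Sites of 4 such genes, chosen after their values were seen to show these letters, are given from GRCm38 on the strand that holds them, with ACTACA in capitals. The site of Gm26901 also holds the core CCCANNATG at its place after ACTACA, likewise in capitals.
Ttc41, chr10:86706013-86706042, plus strand: tggtggtgagaaACTACAgtttccggcatg
Gm26901, chr1:7397655-7397684, plus strand: cagaACTACAactCCCAGCATGcctagggg
Rabl3, chr16:37540080-37540109, plus strand: caagaccttaaaACTACActtcccagagga
Ubxn8, chr8:33641753-33641782, minus strand: cgcgcgcttttgACTACAatccccagaatc
A second gene on the opposite strand shared the peak in 15 of the 25 cases, 60.0% (95% Wilson interval 40.7 to 76.6), in 25.5% (21.7 to 29.7) of the bound genes called lower and in 37.8% (35.6 to 40.1) of those not called. The 15 partner genes had a median log2 change of -0.23, against -0.30 over all bound genes, and 10 were negative and 5 positive. Of the 15, 2 were called lower, where 19.4% of all bound genes were. They were Asxl1, a chromatin regulator, at -1.26 beside 2500004C02Rik at 0.96, and Atp5o, a subunit of ATP synthase, at -0.65 beside D430001F17Rik at 1.35. Asxl1 missed the threshold without DMSO replicate 2 or either 6 h library (adjusted p = 0.0512 to 0.115). Rabl3 rose from 40.1 and 40.1 CPM to 102 and 99.4 CPM, while Gtf2e1, a subunit of the general transcription factor TFIIE that starts 96 bp away on the other strand, read 67.6 and 76.7 CPM in DMSO and 62.4 and 59.5 CPM after 6 h. The 6 h libraries of Gtf2e1 lay just below its controls, and the change of -0.24 did not pass the test (adjusted p = 0.367, edgeR's quasi-likelihood test). Hsp90b1, the partner of Ttc41, had both 6 h libraries above both controls (log2 change 0.44, adjusted p = 0.269, same test).

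In pairs of genes that start back to back from 1 peak, 1 gene could be called and the other not. In 256 head-to-head pairs of tested genes at 1 ZFP143 peak, both genes were called lower in 9 pairs, 1 gene alone in 57, a gene was called higher in 9, and neither was called in 181. Of all bound genes 19.4% were called lower, and whether calls within a pair went together was not tested. In the 57 pairs the called gene had a median log2 change of -1.27 and the other gene one of -0.23, with a range of -1.66 to 1.13, and the other gene was negative in 40 of them. Over all bound genes the median was -0.30 and the upper quartile 0.00, so the other genes lay near bound genes in general. The difference within a pair was not tested. Mmachc, which processes vitamin B12 and passed the count rule through DMSO alone, fell from 6.91 and 8.43 CPM to 0.545 and 0.248 CPM. Its neighbour Ccdc163, 103 bp away, read 72.5 and 79.9 CPM in DMSO and 71.5 and 95.2 CPM after 6 h. The libraries of Mmachc were separated by a wide gap and those of Ccdc163 overlapped. In RNA-seq after 24 h, however, Ccdc163 was called lower, at 11.4 and 10.8 CPM in DMSO and 1.69 and 1.73 CPM after depletion (log2 change -2.68, adjusted p = 6.97e-10, glmTreat of edgeR). Crcp, a subunit of RNA polymerase III, fell from 82 and 75.9 CPM to 11.3 and 9.16 CPM, and its neighbour Asl, an enzyme of the urea cycle 43 bp away, read 18.1 and 11.4 CPM in DMSO and 17.7 and 14.4 CPM after 6 h. Among 11 pairs whose lower gene had a log2 change of -2 or less, the other gene lay within 0.5 of 0 in 8. Mmachc missed the threshold without DMSO replicate 2 or either 6 h library (adjusted p = 0.0583 to 0.145).

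**Figure D4:**
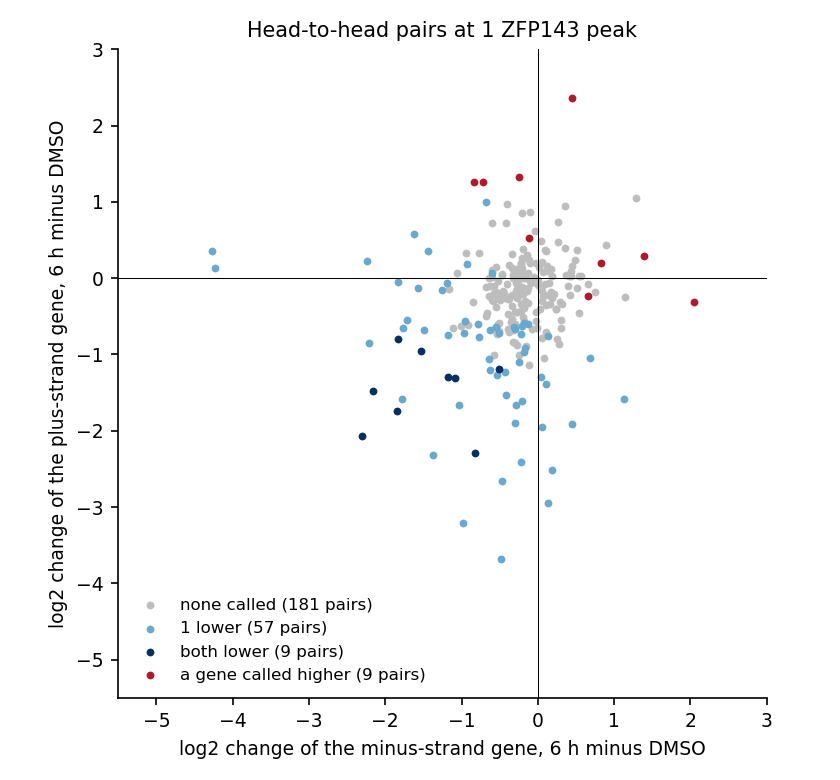
Log2 change after 6 h of the plus-strand gene (vertical axis) against the minus-strand gene (horizontal axis) for 256 head-to-head pairs at 1 ZFP143 peak, coloured by which genes were called. In the 57 pairs with 1 gene called lower the other gene is mostly nearer 0, with a median of -0.23 (-0.30 over all bound genes), and the 9 pairs with both lower lie at the bottom left.

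The 58 genes called lower without a peak, by the window rule on the deposited list alone, had a median log2 change of -1.0, against -1.42 for those with one, and 10 of them had a peak within 10 kb of the gene start. Cpox, an enzyme of heme synthesis, fell from 15.4 and 16.3 CPM to 2.26 and 0.99 CPM, a log2 change of -3.27 ± 0.39 (SE; adjusted p = 0.00264, edgeR's quasi-likelihood test), and the nearest listed peak lay 57699 bp from its annotated start. Hace1, a ubiquitin ligase gene, fell from 58.5 and 74 CPM to 16.5 and 14 CPM, with the nearest peak 1149829 bp away. Ccdc34 changed by -1.61 on the log2 scale. The treated libraries of Cpox and Hace1 were well below their controls. These 3 were also lower in RNA-seq after 24 h of depletion, Cpox by -3.25, Hace1 by -1.77 and Ccdc34 by -1.56 on the log2 scale. Cpox, Hace1 and Ccdc34 are named here after their values were seen.

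Nuclear genes for mitochondria were among those called lower. Of 78 genes for subunits of oxidative phosphorylation, 13 were called lower, 16.7% against 3.08% of all tested genes, and none higher, with a list median of -0.27 against 0.01 over all genes. Cox7c, a subunit of cytochrome c oxidase, fell from 54.5 and 52.1 CPM to 3.97 and 4.79 CPM. Uqcr10, a subunit of complex III, fell from 41.6 and 38.1 CPM to 8.49 and 7.59 CPM. Both genes had treated libraries far below the controls. Atp5d and Atp5mpl, of ATP synthase, changed by -1.82 and -1.30 on the log2 scale, and Cyc1, cytochrome c1, by -1.09. Of 81 genes of the mitochondrial ribosome, 8 were called lower, 9.88%, and none higher, with a median of -0.32. They were led by Mrps25 at -3.32, Mrpl54 at -2.88, Mrpl10 at -1.58 and Mrpl34 at -1.38. Without single libraries the counts were 3 to 6 for oxidative phosphorylation (median -0.17 to -0.39) and 2 to 3 for the ribosome (-0.20 to -0.45), lowest for both without 6 h replicate 1, and with the block they were 21 and 14. Cyc1 and Mrpl34 missed the threshold without any 1 library (adjusted p = 0.0583 to 0.189 and 0.085 to 0.263), Atp5mpl without DMSO replicate 1 or 6 h replicate 1 (0.0547 and 0.121), and Mrpl54 without 6 h replicate 1 (0.0796).

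The smaller mitochondrial lists behaved in part alike. In protein import, 3 of 34 genes, 8.82% against 3.08% of all tested genes, were called lower and none higher, with a list median of -0.16: Timm13 at -2.80, Timm21 at -1.71 and Tomm40, the pore of the outer membrane, at -0.97. Of 13 translation factors 2 were called lower, and the list median was 0.03. Mtrf1, a release factor, fell from 15 and 14.1 CPM to 3.97 and 4.7 CPM, and Tufm, an elongation factor, fell by 0.88 on the log2 scale. The assembly factor Coa3 fell from 5.16 and 5.09 CPM to 0.934 and 1.4 CPM. None of 17 genes for transcription and copying of mitochondrial DNA and none of 13 for fission and fusion was called, with medians of -0.23 and 0.05, although with the block 1 of the former was called lower. The block also gave 6 import genes and 3 translation factors called lower. Tfam, which packs and transcribes mitochondrial DNA, read 46.9 and 48.1 CPM in DMSO and 35.7 and 33.5 CPM after 6 h. Both treated libraries of Tfam lay below both controls, but the change of -0.46 did not pass the test (adjusted p = 0.106, edgeR's quasi-likelihood test), nor did that of the fission gene Dnm1l (-0.41, adjusted p = 0.117). Against the same DMSO libraries Dnm1l changed by -0.57 at 2 h and -0.60 at 24 h (adjusted p = 0.0434 and 0.0229, same test). In RNA-seq after 24 h Dnm1l was called lower, by -1.17 on the log2 scale (adjusted p = 1.11e-13, glmTreat of edgeR). Timm21 and Tufm missed the threshold without any 1 library (0.0819 to 0.276 and 0.0788 to 0.318), and Timm13, Tomm40, Mtrf1 and Coa3 without either 6 h library (0.0508 to 0.123).

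Some tRNA genes of mitochondrial DNA were called higher. Of 17 mitochondrial tRNA genes tested, 16 had both treated libraries above both controls, and 4 were called higher, against 0.448% of all tested genes, with a list median of 0.77. The tRNA for phenylalanine, mt-Tf, rose from 38 and 30.4 CPM to 63 and 63.9 CPM (log2 change 0.89, adjusted p = 0.0177, edgeR's quasi-likelihood test). The tRNA for valine, mt-Tv, rose from 59.4 and 47.6 CPM to 114 and 86.9 CPM. In both genes the groups did not overlap. The other called members were mt-Tp at 0.96 and mt-Tt at 0.69. The ribosomal RNA between mt-Tf and mt-Tv, mt-Rnr1, had 2549 and 2224 CPM in DMSO and 3042 and 2707 CPM after 6 h (0.27, adjusted p = 0.325), and the 7 protein genes had a median of 0.07 with none called. After 2 h and 24 h the log2 changes were 0.47 and -0.42 for mt-Tf, 0.53 and -0.11 for mt-Tv, 0.57 and -0.60 for mt-Tt, and 0.78 and 0.39 for mt-Tp, against the same DMSO libraries, so the 4 called tRNAs did not share 1 sign at 24 h. The number of tRNAs called was 2 without DMSO replicate 1 and 0 without DMSO replicate 2, 6 h replicate 1 or 6 h replicate 2, while with the block it was 9. A read that touched several of these adjoining genes was counted for each of them.

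Some cytosolic ribosomal protein genes were called lower. All 81 had a negative log2 change, 75 had both treated libraries below both controls, and 22 were called lower, 27.2% against 3.08% of all tested genes, and none higher, with a median of -0.50. Rplp2, of the ribosomal stalk, fell from 266 and 274 CPM to 110 and 128 CPM. Rpl15 fell from 180 and 168 CPM to 68.1 and 90.4 CPM. Rpl30 changed by -1.11 and Rps29 by -0.94 on the log2 scale. Without single libraries the count called was 4 (DMSO replicate 1), 13 (DMSO replicate 2), 0 (6 h replicate 1) and 4 (6 h replicate 2), with medians of -0.41 to -0.57, and with the block it was 37. Without 6 h replicate 1 the adjusted p was 0.0556 for Rplp2, 0.12 for Rpl15, 0.242 for Rpl30 and 0.166 for Rps29. None of the 81 was called lower in RNA-seq at 24 h, where the test asked for a change beyond 1.5-fold. The log2 changes there were -0.65 for Rplp2, -0.60 for Rpl15, -0.46 for Rpl30 and -0.75 for Rps29. The absence of calls thus does not show that their mature RNA was unchanged.

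Small nucleolar RNA genes followed the genes that hold them. Of 58 snoRNA and scaRNA genes inside a gene called lower on the same strand, 29 were called lower, with a median of -1.01. Elsewhere 3 of 263 were called lower, 1.14%, and 1 higher, with a median of -0.21 that became -0.07 without DMSO replicate 2. Over all tested genes 3.08% were called lower and 0.448% higher. The 58 genes were grouped by the calls of their hosts in the same libraries. The authors counted reads over whole genes and gave a read to every gene it touched, so a guide RNA inside an intron also counts the reads of its host. Snhg12, a host gene, fell from 326 and 349 CPM to 51.2 and 68.8 CPM, and 4 RNAs inside it, Snora61, Snora44, Snord99 and Snora16a, changed by -2.50, -2.48, -2.42 and -2.28 on the log2 scale. The host and its guests fell by like amounts, and a separate change of the guests cannot be told apart from the host. None of 59 small nuclear RNA genes tested was called, and their median was 0.11. With the block, the counts lower were 50 inside and 34 elsewhere, and without 6 h replicate 1 they were 8 and 0.

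Zinc finger genes were the largest of the lists. Of 423 genes of the C2H2 class, 40 were called lower, 9.46% against 3.08% of all tested genes, with a median of -0.12. The 2 called higher, a share close to the 0.448% of all tested genes, were Zfp143 and Zfp385b. Zfp354a fell from 7.22 and 8.21 CPM to 0.234 and 0.248 CPM, next to Zfp354b, described above, and Zfp354c at -2.84 on the log2 scale. Zfp108 changed by -3.95 and Zfp111 by -4.66 on the log2 scale. The treated libraries of Zfp354a were nearly empty, and it passed the count rule through DMSO alone. Without single libraries the count lower was 25 (DMSO replicate 1), 20 (DMSO replicate 2), 10 (6 h replicate 1) and 16 (6 h replicate 2), and with the block it was 73. Zfp354a missed the threshold without 6 h replicate 1 (adjusted p = 0.0583).

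Smaller lists held 1 to 5 genes called lower each, with log2 changes from -5.67 for Usp40 to -0.59 for Kxd1. In mannose and O-mannose glycosylation 5 of 26 genes, 19.2% against 3.08% of all tested genes, were called lower and none higher. Pomgnt2, which extends O-mannose and passed the count rule through DMSO alone, fell from 7.32 and 11.6 CPM to 0.0779 and 0.33 CPM, and Mpi, Pomt2 and Gmppa, of the same pathway, changed by -3.66, -3.17 and -2.58 on the log2 scale. Of 11 RNase P and RNase MRP subunits, which trim tRNA and rRNA precursors, 3 were called lower, 27.3%. Rpp30 fell from 42.5 and 53.7 CPM to 3.66 and 4.13 CPM, Rpp40 changed by -1.17 and Pop1 by -0.72 on the log2 scale. The treated libraries of Rpp30 were far below both controls. In the tri-snRNP list Ddx23, a helicase of spliceosome activation, was the 1 gene called of 18 and changed by -1.60. Tcp1 and Cct7, subunits of the CCT chaperonin, changed by -0.99 and -0.66, the 2 called of 8. Snapin at -2.13 and Kxd1 at -0.59 were the 2 called of 13 genes of the BLOC-1 and BORC lysosome complexes, and Snapc4 at -0.64 and Polr3e at -0.62 the 2 of 26 genes in a list of SNAPc and RNA polymerase III built from gene symbols. That list lacks Crcp, the polymerase subunit described above, which was called lower at -2.95. Usp40 and Usp35 were the 2 called of 48 ubiquitin-specific proteases, 4.17%, a share close to the 3.08% of all tested genes, and Mmachc, Cpox and Sepsecs the only called genes of 11 in the cobalamin pathway, 8 in heme synthesis and 18 in the selenocysteine machinery. Of 9 genes of ZFP143 and its cofactors, Hcfc2 was called lower at -1.40 and Zfp143 higher. Medians of these lists ran from -0.50 for RNase P and MRP to 0.11 for the cobalamin pathway. With the block by replicate number 7 mannose genes were called lower and 1 higher. RNase P and MRP, SNAPc and RNA polymerase III, and the ubiquitin-specific proteases then had 4 lower each. Without 6 h replicate 1, 2 mannose genes, 1 RNase P gene and no CCT gene were called. Snapin, Snapc4 and Usp35 missed the threshold without any 1 library (adjusted p = 0.0738 to 0.314), and Gmppa, Pomgnt2, Tcp1 and Polr3e without either 6 h library (0.0601 to 0.177). Rpp40, Pop1, Cct7 and Hcfc2 did so without DMSO replicate 2 or either 6 h library (0.064 to 0.219), and Kxd1 without DMSO replicate 1 or either 6 h library (0.134 to 0.265).

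**Figure D5:**
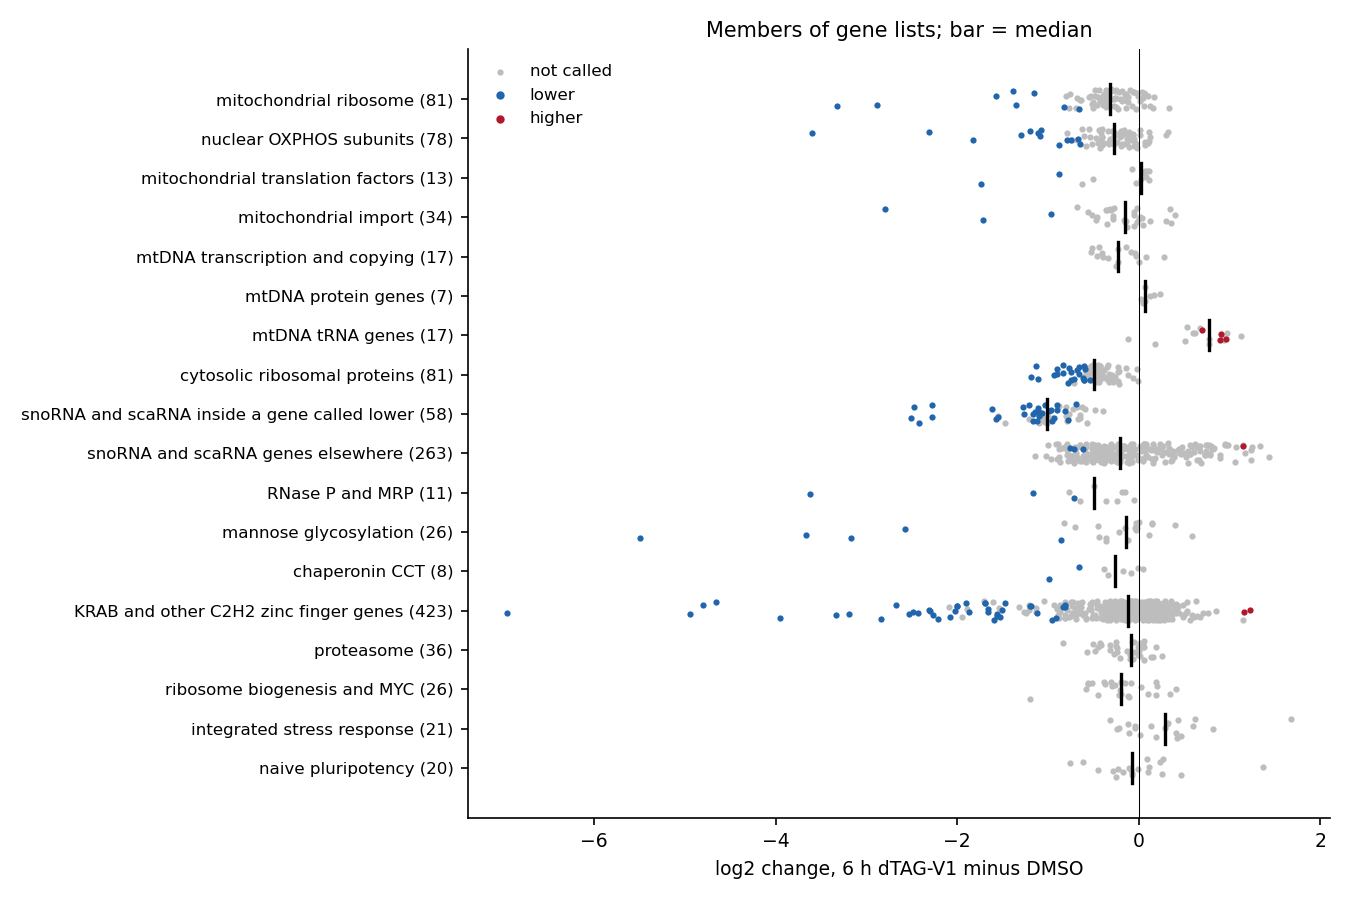
Log2 change after 6 h of each tested member of 18 gene lists (horizontal axis, 1 point per gene, number of genes in parentheses, black bar = median), with called genes in blue (lower) and red (higher). The cytosolic ribosomal protein genes all lie left of 0, and the mitochondrial tRNA genes are shifted right, with a median of 0.77.

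Other lists held from 0 to 3 called genes at 6 h. No gene was called among 36 of the proteasome, 24 of replication licensing, 26 of ribosome biogenesis and MYC targets, 19 of the p53 response, 17 of the VHL ligase and HIF, and 20 of naive pluripotency, with medians of -0.08, 0.02, -0.20, -0.14, -0.11 and -0.08. Without single libraries these medians ran from -0.17 to 0.04, -0.07 to 0.14, -0.28 to -0.20, -0.35 to 0, -0.22 to -0.10 and -0.03 to 0.08, so most of them had no stable sign or size. With the block by replicate number, 1 proteasome gene, 2 of ribosome biogenesis and MYC and 1 of VHL and HIF were called lower, and 1 of the stress response below higher. The 21 genes of the integrated stress response had no call and a median of 0.29, with 6 above both controls, but the median was 0.01 without DMSO replicate 2, 0.13 without 6 h replicate 2 and 0.48 without DMSO replicate 1. Of 22 mitotic regulators, 2 were called lower, 9.09% against 3.08% of all tested genes, and 1 higher, against 0.448%. Birc5, survivin, fell from 66.9 and 66.6 CPM to 23.6 and 23.3 CPM, and Plk1 changed by -0.60 but missed the threshold without any 1 library (adjusted p = 0.0528 to 0.242). Espl1, separase, rose from 102 and 87.5 CPM to 184 and 196 CPM. The groups did not overlap in Birc5, Plk1 or Espl1. Hsph1 at -1.51 was the 1 called of 11 heat shock genes, Jun the 1 of 16 immediate early genes, and H2afy, a macroH2A gene and thus no replication-dependent histone, the 1 of 70 genes matched by the histone symbols. These single calls are 9.09%, 6.25% and 1.43% of their lists, the last below the 3.08% of all tested genes. Jun passed the count rule through DMSO alone. With DESeq2 no immediate early gene was called, while with the block 2 were called lower.

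Mature RNA was compared in RNA-seq libraries with DMSO controls of their own, after 24 h of depletion, where 3.42% of 13925 genes were called lower and 2.38% higher by glmTreat of edgeR against a fold of 1.5. Of the 551 genes called lower in nascent RNA at 6 h, 440 could be tested in RNA-seq, and 268 of these, 60.9%, were called lower and none higher. They made up 56.9% of the 471 genes lower in RNA-seq that were also tested in nascent RNA. Of the genes called higher at 6 h, 64 could be tested and 15, 23.4%, were called higher and none lower, which is 5.0% of the 300 genes higher in RNA-seq. The median RNA-seq change was -1.12 for the former and 0.33 for the latter, against 0.02 over all genes. The RNA-seq count filter removed some of the deepest losses, since genes absent from all 6 depleted libraries fail it. Without that filter Usp40 read 19.2 and 21.3 CPM in DMSO and 0.242 and 0.182 CPM after 24 h, and 309 of 513 genes, 60.2%, were lower. Some genes lower in nascent RNA were not called in RNA-seq: Snhg12 changed by -2.49 at 6 h in TT-seq and by -0.16 in RNA-seq, and Cyc1 by -1.09 and -0.27.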

How the data were processed

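The authors deposited raw read counts per gene. TT-seq reads had been mapped with STAR to mm10, filtered for unique mapping, freed of duplicates, split by strand and counted over GENCODE genes with HTSeq, each read counting for every gene it touched. RNA-seq counts came from STAR. MACS2 peaks of ZFP143 were deposited as 1 list that carries a fold enrichment (a ratio of ChIP to input) and a −log10 q-value for each peak, and CTCF positions as another. No per-replicate peaks were used here, and 4C and retinoic acid files were not used here.

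All 8 TT-seq libraries were fitted together in edgeR 4.0.16 (R 4.3.3, limma 3.58.1) with TMM, and p-values were adjusted after Benjamini and Hochberg over all 17876 genes. The common biological coefficient of variation was 17.2%. RNA-seq genes needed over 10 counts in at least 4 of 8 libraries and an adjusted p under 0.01. DESeq2 1.42.0, other scalings, filters and omitted libraries were alternatives. Scripts were tested on simulated data. No 2 of the 8 libraries were identical. Symbols and positions came from a GENCODE vM21 table, which matched 17837 of the genes. The replicate numbers were taken to pair libraries because differences between replicates correlated positively in all 6 pairs of groups (r = 0.199 to 0.627 over genes), although the labels do not state it. The lowest value, 0.199, was that of DMSO with 6 h, the groups compared here, and the highest, 0.627, that of DMSO with 24 h. Intervals cover counting error only.

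Genes named were Zfp143, the 10 greatest decreases and 10 greatest increases with a mean count of at least 100 and separated groups, up to 4 called genes of each list, and examples the study showed. Setmar, Acadvl, Snhg3, Snhg12, Meg3, Rian, Cpox, Hace1, Ccdc34, mt-Rnr1, the pair partners and other genes added to these were chosen after their values were seen. The members and lists were chosen with earlier results of these data known.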

Additional observations from a re-analysis of the deposited data

How the results depend on the processing

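The direction of each of the 90 called genes named by rule or added was kept in all 1246 values under alternatives, and 143 of these values were no longer past both thresholds. For 6 h against DMSO, the replicate block, which treats libraries of the same number as pairs, gave 1044 genes lower and 397 higher, and 1141 and 525 when the 4 DMSO and 6 h libraries were fitted alone with it, an alternative chosen after seeing the data. Those 4 libraries without the block gave 50 higher. No filter gave 1007 lower and 347 higher, and the DESeq2 Wald test 161 higher. Leaving out 1 library gave 142 to 341 lower and 10 to 47 higher. For 6 h against 2 h, no filter gave 4 genes lower and the DESeq2 Wald test 2, where the main count was 0. In RNA-seq at 24 h the number higher, 331, became 511 with library size alone and 102 with DESeq2, and 223 to 251 without single libraries. The share of genes called lower with a peak was 79.6% when a peak needed at least the median enrichment. The share of peaks with the core letters was 22.7% within 100 bp of the centre, and, with letters chosen after seeing the data, 39.3% for ACTACA and 42.3% for CCCANNNTG. The cause of these differences was not tested. Other scalings moved the median of all genes by 0.02 or less. Of the genes called, 424 of the 551 lower and 66 of the 80 higher had a mean count of at least 100, and the part of depth in this was not tested.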

Other observations

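Several of the genes called higher lie in a run of imprinted non-coding genes on chromosome 12, from the start of Meg3 to the end of Mirg (GRCm38, positions 109541001 to 109749460, plus strand). The run was picked out after values were seen. Of 89 tested genes in it, many of them small RNAs that share reads with the long transcripts, 86 had a positive log2 change, 68 had both treated libraries above both controls, none had them below, and the median was 0.64. Rian, a maternally expressed host of small nucleolar RNAs, rose from 513 and 658 CPM to 1019 and 1073 CPM, and Meg3, the long non-coding RNA at the start of the run, from 399 and 336 CPM to 670 and 567 CPM. The groups did not overlap in either gene. The log2 changes were 0.84 for Rian and 0.75 for Meg3 (adjusted p = 0.0242 and 0.0428, edgeR's quasi-likelihood test). The adjusted p of Meg3 was over 0.05 without any 1 of the 4 libraries, at 0.0911 to 0.312. Of the 89 genes 6 were called higher, against 0.448% of all tested genes, the other genes did not pass the test, and no gene in it had a ZFP143 peak at its promoter. Its median was 0.39 at 2 h and 0.77 at 24 h, against the same DMSO libraries.

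Of the marker lists of other cell types, those of primitive endoderm and fibroblasts had summed levels above both controls in both treated libraries. The primitive endoderm sum was 244 and 210 CPM in DMSO and 292 and 282 CPM after 6 h, and the 6 members tested had a median log2 change of 0.57, or 0.38 without 6 h replicate 1. The mesoderm sum had both treated libraries, at 8.1 and 6.85 CPM, below both controls, at 8.77 and 53.3 CPM. The groups overlapped in the sums of the next lists, which ran from 118 to 190 CPM for formative and primed cells, 64.7 to 84.2 CPM for neural cells, 46.3 to 60.4 CPM for trophoblast and 0.389 to 1.14 CPM for cells of the 2-cell type. The fibroblast sum was 900 and 880 CPM in DMSO and 1110 and 1140 CPM after 6 h, nearly all of it from Fn1, which stem cells also make, with Postn, Dcn and Acta2 at 0 in all 4 libraries. No gene of these lists was called, although with the block by replicate number 1 neural marker was called higher. The part of these markers in other results was not tested.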
